A study of Mus musculus with 12 samples.

Results

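WNT ligands, their Frizzled and LRP receptors and their secreted antagonists and agonists were described in NIH3T3 fibroblasts, a line of immortalized mouse embryonic cells. The members were all protein-coding genes whose symbol names a Wnt, a Frizzled (Fzd), a Dickkopf (Dkk), a secreted Frizzled-related protein (Sfrp), an R-spondin (Rspo), or Lrp5 or Lrp6, which gave 43 genes of the 27179 gene IDs in each count table. They comprised 19 Wnt ligands, 10 Frizzled receptors, 2 LRP co-receptors, 8 antagonists (4 Dkk and 4 Sfrp) and 4 R-spondin agonists. The series labels 12 samples of polyA RNA, 3 in each of 4 groups: IL-1β at 0.2 ng/mL, LPS at 100 ng/mL, PAM at 0.2 ng/mL and media, each for 2 h in microfluidic devices. All groups share the genotype RelA-/- with a RelA-DsRed fusion, so the cells lack the endogenous p65 subunit of NF-κB and carry a fluorescent version of it. The labels do not say whether the cells are 1 clone.

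The LPS, PAM and media groups had no counts of their own, since their 9 tables repeat the third IL-1 table exactly. The values below therefore come from the 3 distinct libraries of the IL-1 group, which held 17254518, 18091073 and 18578859 counts. They are levels after IL-1 treatment, with no untreated level to set them against. Where nothing else is said, errors are SD over these 3 libraries, which may be technical replicates. Replicate 1 held the highest value of 45.7% of the 11224 detected genes of any type, so values without it are given where they differ by over 1.5 times. Of the cell type markers, all 10 fibroblast genes were detected, while 0 of 7 epithelial, 1 of 6 endothelial (Egfl7) and 1 of 5 osteoblast markers (Runx2) were. Of 7 macrophage markers 4 were detected (Lyz2, Cd74, Cd68 and Csf1r), and the 7 summed to 18.2 to 27.6 CPM per library. The others were near 0, with 3, 0 and 6 counts of Ptprc, 4, 0 and 0 of Adgre1 and 2, 0 and 0 of Itgam. Whether any macrophages were present, or had a part in the levels below, was not tested. Of 4 adipocyte markers, 1 (Fabp4) was detected. In such bulk RNA, a few cells with much transcript and many cells with little cannot be told apart.

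WNT proteins are secreted lipid-modified ligands. In the β-catenin branch of the pathway, a WNT bridges a Frizzled, a membrane receptor, and the co-receptor LRP5 or LRP6, which stops the destruction of β-catenin and lets it activate genes together with TCF and LEF factors. Other WNTs, with WNT5A as the best known, act mostly without β-catenin, through Frizzleds and the receptors ROR and RYK. DKK1, DKK2 and DKK4 bind LRP5 and LRP6, SFRPs bind WNTs themselves, and R-spondins raise the amount of Frizzled at the surface by removing the ubiquitin ligases ZNRF3 and RNF43. In fibroblasts and mesenchyme the pathway is known for its part in patterning, skeletal and skin development and fibrosis.

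A gene was called detected when it reached 1 CPM (counts scaled to a library total of 1000000) in each of the 3 libraries. By this rule 15 of the 43 members were detected, against 51.1% of the 20979 protein-coding genes in the tables. Detection differed by class: 3 of 19 Wnt ligands, 7 of 10 Frizzleds, both LRP co-receptors, 2 of 8 antagonists and 1 of 4 R-spondins. The detected set was Wnt5a, Wnt6 and Wnt10a, Fzd1 to Fzd7 without a gap, Lrp5 and Lrp6, Dkk2 and Dkk3, and Rspo1. No member averaged close to the limit on the upper side: the lowest detected member, Lrp5, averaged 2.26 ± 0.81 CPM and the highest member below it, Wnt11, 0.88 ± 0.35 CPM. Another 6 members had no count in any library (Wnt3a, Wnt4, Dkk1, Sfrp2, Rspo2 and Rspo3). A count of 0 over the 3 libraries together allows up to 0.0556 CPM, counting error only.

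**Figure D1:**
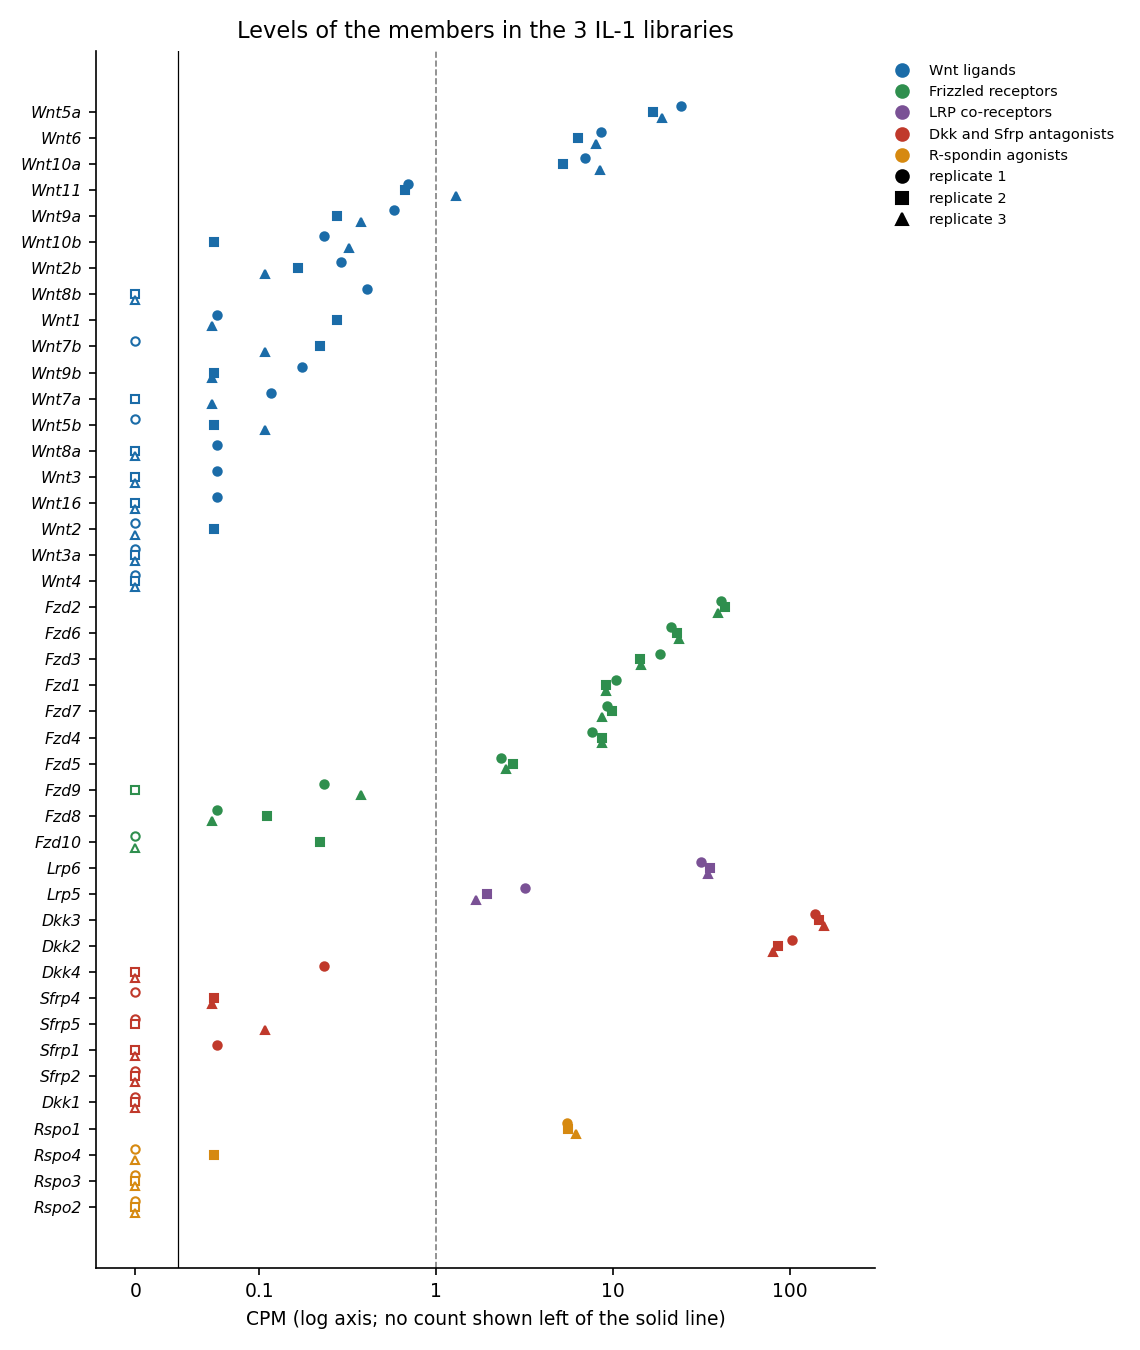
CPM (log axis) of all 43 members in the 3 IL-1 libraries, by class and marker shape, with open markers left of the solid line for libraries without a count and a dashed line at 1 CPM. Above the dashed line in all 3 libraries lie 3 of 19 Wnt ligands, 7 of 10 Frizzleds, both LRP co-receptors, 2 of 8 antagonists and 1 of 4 R-spondins, and 6 members have no count.

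Levels of different genes were compared per kb of merged exons, on the assumption that longer transcripts give more reads. Whether this holds in these libraries was not tested, and class sums without division by length are given at the end. On that scale antagonist transcripts were the largest class, which rested on Dkk3: without it the Dkk genes stood at 27.8, 23.0 and 21.4 CPM per kb, above the Frizzleds in replicate 1 and below them in replicates 2 and 3. The Dkk and Sfrp genes summed to 69.1, 66.2 and 67.6 CPM per kb in replicates 1 to 3, the Frizzleds to 23.1, 23.7 and 22.6, and the Wnt ligands to 10.5, 7.68 and 10.1. R-spondins (2.98 ± 0.188 CPM per kb) and LRP co-receptors (2.70 ± 0.0771 CPM per kb) were lowest. The ranges of antagonists, Frizzleds and ligands over the 3 libraries did not overlap. Within a library, antagonists exceeded Wnt ligands 6.55-, 8.62- and 6.69-fold and Frizzleds exceeded Wnt ligands 2.19-, 3.08- and 2.23-fold. With 3 libraries, values paired in this way cannot go below an exact two-sided permutation p of 0.25, so no test was made. The antagonists took 63.9% ± 0.229 (SD, n = 3) of the summed level of all members, the Frizzleds 21.8% ± 0.933 and the ligands 8.90% ± 1.27. The order of R-spondins and LRP co-receptors turned over when the longest transcript was used as length (3.15 against 3.85 CPM per kb), and the merged exons of Lrp6 run to 13.672 kb.

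**Figure D2:**
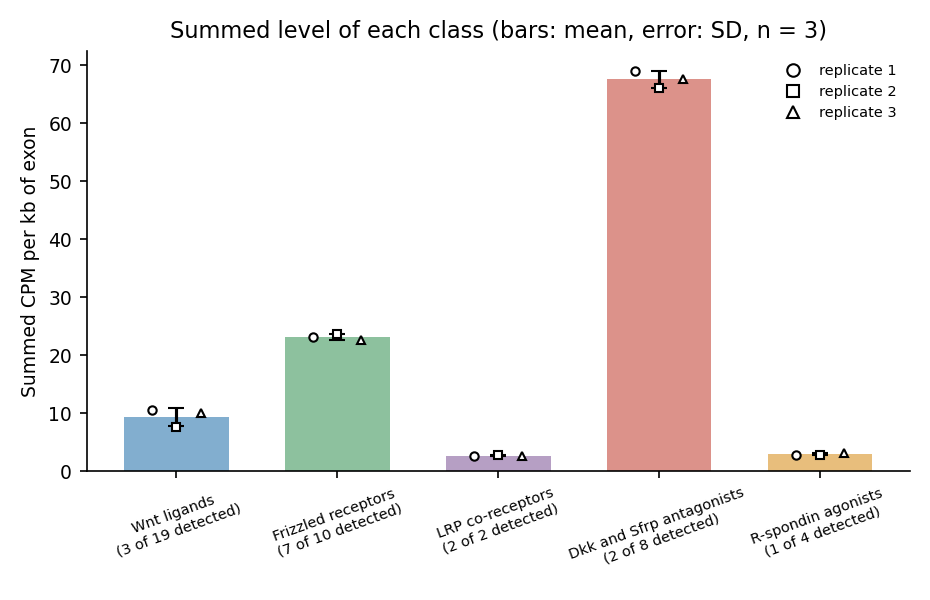
Summed CPM per kb of exon for each class; bars give the mean and error bars the SD over the 3 IL-1 libraries, and open markers the single libraries. Antagonists lie at 66.2 to 69.1, Frizzleds at 22.6 to 23.7 and Wnt ligands at 7.68 to 10.5.

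Among the ligands, Wnt6, Wnt10a and Wnt5a held nearly all reads. Wnt5a (Entrez 22418, chromosome 14, 28504543 to 28527448, GRCm38), the prototype of β-catenin-independent ligands, had 24.1, 16.9 and 18.8 CPM in replicates 1 to 3. Wnt6 (chromosome 1, 74754342 to 74785322), a ligand of epithelial and mesenchymal development, had 8.52, 6.36 and 7.97 CPM. Wnt10a (chromosome 1, 74792019 to 74804176), a ligand of tooth, hair and skin development, had 6.95, 5.20 and 8.40 CPM. All 3 were lowest in replicate 2, as were 41.9% of the 11224 detected genes of any type. Per kb the order became Wnt6 at 3.47 ± 0.513, Wnt10a at 2.78 ± 0.649 and Wnt5a at 2.55 ± 0.475 CPM per kb. The ranges of neighbours in this order overlapped over the 3 libraries. Within each library Wnt6 was highest, at 3.89, 2.90 and 3.63 CPM per kb in replicates 1 to 3. Wnt10a stood at 2.82, 2.11 and 3.40 and Wnt5a at 3.07, 2.16 and 2.41, so the order of these 2 changed between libraries. Wnt6 made up 36.9% ± 0.901 of the summed ligand level.

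The remaining 16 Wnt genes together had 47, 33 and 46 counts in replicates 1 to 3, or 6.38% of all ligand counts. Wnt11, a ligand of cell movements, had 12, 12 and 24 counts and passed 1 CPM in replicate 3 only. Wnt9a had 10, 5 and 7 counts and Wnt10b 4, 1 and 6. Wnt1, Wnt3 and Wnt3a, classical activators of β-catenin, were at or near 0. Wnt1 had 1, 5 and 1 counts, Wnt3 1, 0 and 0 and Wnt3a none. They do not stand for all ligands of that branch, and the branch through which Wnt6 and Wnt10a act here was not tested. Wnt5b, the closest paralog of Wnt5a, had 0, 1 and 2 counts, and Wnt16 1, 0 and 0. Wnt8b had 7 counts in replicate 1 and none elsewhere. The other members of this set (Wnt2, Wnt2b, Wnt7a, Wnt7b, Wnt8a and Wnt9b) had 1 to 10 counts each over the 3 libraries, and Wnt4 none.

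Wnt6 and Wnt10a are neighbours on the plus strand of chromosome 1, with 6696 bases between them. Mouse Wnt genes form 3 further such pairs, and none of these was detected. Wnt1 and Wnt10b, 11650 bases apart on chromosome 15, had 7 and 11 counts over the 3 libraries. Wnt3 and Wnt9b, which overlap by 1098 bases on opposite strands of chromosome 11, had 1 and 5, and Wnt3a and Wnt9a, 16097 bases apart on the same chromosome, had 0 and 22. Against these, Wnt6 had 410 counts and Wnt10a 370. Within 200 kb before Wnt6, 7 of 8 protein-coding genes were detected, the nearest being Prkag3 at 2.04 ± 0.437 CPM and Cyp27a1 at 6.13 ± 1.71 CPM. Within 200 kb after Wnt10a, 1 of 6 was, with 1, 0 and 0 counts of Cdk5r2, 0, 3 and 0 of Fev, none of Cryba2 and 1, 1 and 2 of the ligand gene Ihh, before Nhej1 at 7.75 ± 0.524 CPM. On both sides together 8 of 14 genes were detected, against 51.1% of all protein-coding genes, and nothing was read from the split between the sides. The neighbours were examined after the levels of the pair had been seen, and those of the 3 further pairs were not examined.

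Frizzled transcripts were spread over 7 receptors. Fzd2 (Entrez 57265, chromosome 11, 102604431 to 102608058), a receptor for both β-catenin-dependent ligands and WNT5A, led with 40.9, 42.9 and 39.1 CPM. Fzd6, known from hair patterning and planar polarity, followed with 21.3, 22.8 and 23.5 CPM. Fzd3, known from axon guidance, had 18.5, 14.2 and 14.4 CPM, highest in replicate 1. Fzd1 had 10.4, 9.07 and 9.15 CPM, Fzd7 9.21, 9.78 and 8.67, and Fzd4, the receptor for norrin in retinal vessels, 7.59, 8.68 and 8.61. Fzd5 was lowest of the detected receptors, with 2.32, 2.71 and 2.48 CPM. Per kb, Fzd2 stood at 11.2 ± 0.529 CPM per kb, 2.39-fold above Fzd6 at 4.68 ± 0.239. Fzd1 (2.27 ± 0.175) and Fzd7 (2.03 ± 0.123) came next, with ranges that met at 2.16 CPM per kb. Fzd4 (1.23 ± 0.0906) and Fzd3 (1.22 ± 0.191) overlapped, and Fzd5 (0.362 ± 0.0284) lay below both. Fzd2 held 48.4% ± 1.16 of the summed Frizzled level.

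By sequence family, the sum of Fzd1, Fzd2 and Fzd7 took 67.0% ± 1.41 of the Frizzled level per kb, and Fzd3 with Fzd6 took 25.6% ± 0.961. Fzd4, Fzd9 and Fzd10 took 5.83% ± 0.541 and Fzd5 with Fzd8 1.62% ± 0.12. Each family thus had a detected member, and in the latter 2 families it was Fzd4 and Fzd5 alone. Fzd9 had 4, 0 and 7 counts, Fzd10 0, 4 and 0, and Fzd8 1, 2 and 1.

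Fzd1, Fzd2 and Fzd7 are single-exon genes with similar coding sequences, so reads could be shared between them. The longest stretch that is identical in all 3 is shown because reads within it fit each of them equally; longer runs are shared by pairs of these genes. It lies in the coding part of each exon, is 35 bases long and is printed in capitals with 30 bases on either side, 5′ to 3′ on the coding strand (GENCODE M21 transcripts, GRCm38). The windows lie at chr5:4756943-4757037 (minus strand) for Fzd1, chr11:102605074-102605168 (plus strand) for Fzd2 and chr1:59483317-59483411 (plus strand) for Fzd7.
Fzd1: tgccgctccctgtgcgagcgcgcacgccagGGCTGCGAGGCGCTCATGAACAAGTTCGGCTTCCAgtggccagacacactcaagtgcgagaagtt
Fzd2: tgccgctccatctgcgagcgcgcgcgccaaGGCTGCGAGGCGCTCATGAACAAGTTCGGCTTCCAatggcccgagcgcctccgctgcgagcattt
Fzd7: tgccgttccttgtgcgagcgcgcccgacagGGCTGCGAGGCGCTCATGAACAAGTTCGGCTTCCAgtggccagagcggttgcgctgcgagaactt
Over the coding sequences, the longest identical run was 47 bases for Fzd1 and Fzd2, 47 for Fzd1 and Fzd7 and 38 for Fzd2 and Fzd7. None of the 50-base windows of these 3 transcripts occurred in a transcript of another gene on either strand. The read length is not given in the sources used here, so how many reads fell within the shared runs is not known.

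Other members shared sequence mainly with genes on the opposite strand. Exons of Fzd5 overlapped those of the antisense gene Gm38058 over 17.8% of their length, and those of Wnt5a, Wnt11 and Fzd6 overlapped antisense genes over 4.58%, 8.80% and 3.15%. The same held for Wnt7b over 6.61%, and for Sfrp2 and Rspo3, which had no count, over 16.1% and 13.1%. The strand setting of the counting is not given, so reads of these pairs cannot be told apart. Among the detected members, Dkk2, Dkk3, Fzd1 to Fzd4, Fzd7, Lrp5, Lrp6, Rspo1, Wnt6 and Wnt10a had no exon overlap with another GENCODE gene.

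Of the co-receptors, Lrp6 was far above Lrp5. Lrp6 (Entrez 16974, chromosome 6, 134446476 to 134566913), a large single-pass receptor that carries the signal to the cytoplasm, had 31.4, 35.3 and 34.4 CPM. Its paralog Lrp5, known from bone mass, had 3.19, 1.93 and 1.67 CPM, highest in replicate 1 (1.77-fold the mean of the other libraries). Per kb the ratio of Lrp6 to Lrp5 was 7.02, 13.0 and 14.7 in replicates 1 to 3. Summed Frizzleds exceeded summed co-receptors 8.57 ± 0.204-fold per kb of merged exons. This ratio depends on the length used: with the longest transcript the sums were 23.6 and 3.85 CPM per kb. Without division by length they were 109 and 36.0 CPM.

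The antagonists were 2 abundant Dkk genes and 6 genes at or near 0. Dkk3 (Entrez 50781, chromosome 7, 112116019 to 112159482), a divergent family member that does not act through LRP5 and LRP6 like its relatives, had 139, 145 and 155 CPM. Dkk2 (Entrez 56811, chromosome 3, 132085266 to 132180304), an LRP5 and LRP6 ligand that inhibits or weakly activates the pathway depending on the cell, had 102, 85.3 and 79.4 CPM, highest in replicate 1. Per kb, Dkk3 at 43.5 ± 2.42 was 1.81-fold above Dkk2 at 24.0 ± 3.19 CPM per kb, with no overlap between libraries. These were the highest of all 43 members, above 93.3% and 88.4% of the protein-coding genes with a known length. For comparison, Fzd2 stood above 80.1%, Wnt6 above 65.7% and Lrp6 above 61.8%. Dkk1, the best known inhibitor of the family, had no count, and Dkk4 had 4, 0 and 0. The Sfrp genes, which encode soluble Frizzled-like domains that bind WNTs, had 1, 1 and 3 counts in total: Sfrp1 had 1, 0 and 0, Sfrp4 0, 1 and 1, Sfrp5 0, 0 and 2, and Sfrp2 none. With Dkk3 set aside, the LRP-binding Dkk genes were 10.6-, 8.29- and 7.98-fold above the summed co-receptors per kb of merged exons. These ratios too depend on the length used for the co-receptors.

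Rspo1 was the only detected R-spondin, with 5.51, 5.58 and 6.19 CPM (2.97 ± 0.193 CPM per kb; chromosome 4, 124986401 to 125009102). Rspo2 and Rspo3 had no count, and Rspo4 had a single count in replicate 2. Per kb, Rspo1 lay within the range of the 3 detected Wnt genes.

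Promoter sequences of RefSeq (GRCm38.p6) were matched for 27 of the 43 members, in 30 windows that run from 250 bases before a start to 50 after it. They covered 7 of the 15 detected members (Dkk2, Fzd1, Fzd4, Fzd5, Fzd7, Rspo1 and Wnt6). CpG content was measured over the 250 bases before the start, as the observed over the expected number of CpG dinucleotides. In detected members its median was 0.755 and 6 of 7 windows reached 0.6. In members below 1 CPM in any library the median was 0.791 and 17 of 23 windows (73.9%) reached 0.6. Over all protein-coding promoters the share at 0.6 or more was 68.6% for detected genes (11121 windows) and 19.0% for genes below detection (9317 windows). The share in members below detection was thus nearer to that of detected genes than to that of other genes below detection. Genes with several starts count more than once in these shares, and members of a gene family share ancestry, so they are descriptions without a test.

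**Figure D3:**
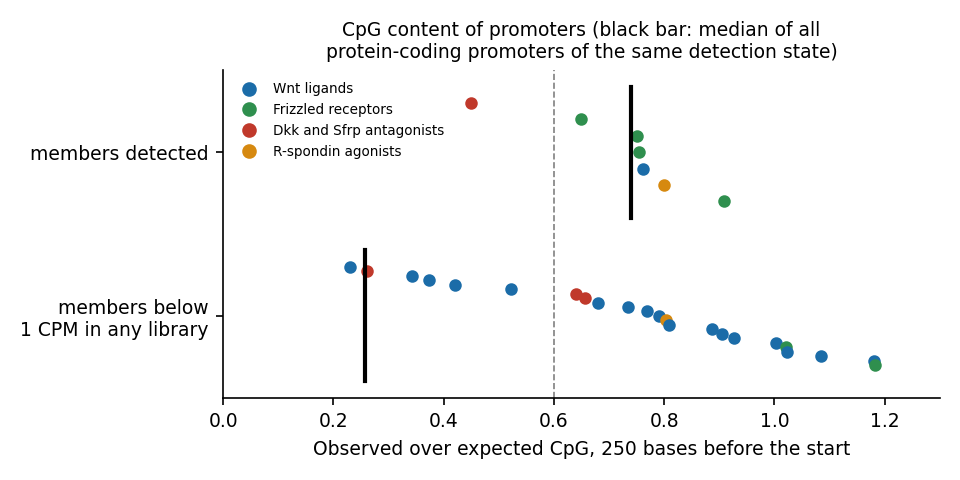
Observed over expected CpG in the 250 bases before the start for the member promoters that were matched, split by detection; black bars mark the median of all protein-coding promoters of the same detection state and the dashed line 0.6. Of the windows of members below 1 CPM in any library, 17 of 23 lie above 0.6, while the median of all such protein-coding promoters is 0.256.

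Wnt6 and Wnt4 illustrate this. Wnt6 was the highest ligand per kb and Wnt4 had no count, and both had a RefSeq start preceded by CpG-rich sequence, with 28 and 44 CpG dinucleotides in 250 bases. For Wnt6 this start lies inside the gene span given above, which begins further upstream, and the window before that outer start was not examined. The windows are chr1:74771642-74771891 for Wnt6 and chr4:137277385-137277634 for Wnt4, both on the plus strand, and capitals mark CpG.
Wnt6: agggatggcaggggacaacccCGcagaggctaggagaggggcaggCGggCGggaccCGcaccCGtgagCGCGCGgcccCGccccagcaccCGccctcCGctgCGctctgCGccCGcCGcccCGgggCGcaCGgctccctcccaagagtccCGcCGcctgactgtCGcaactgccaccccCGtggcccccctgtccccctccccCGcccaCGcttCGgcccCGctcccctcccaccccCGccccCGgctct
Wnt4: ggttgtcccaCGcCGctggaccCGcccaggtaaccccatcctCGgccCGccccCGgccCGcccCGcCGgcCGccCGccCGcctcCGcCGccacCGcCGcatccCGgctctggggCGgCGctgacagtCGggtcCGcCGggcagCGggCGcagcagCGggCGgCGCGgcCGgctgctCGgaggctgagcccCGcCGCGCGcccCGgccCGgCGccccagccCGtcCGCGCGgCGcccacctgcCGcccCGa
Promoters were matched for Dkk1 and Dkk2 but not for Dkk3 and Dkk4. Dkk2, at 89.0 ± 11.8 CPM, and Dkk1, with no count, both had few CpG dinucleotides (7 and 6) and a TATAAA motif on the sense strand. The motif begins 32 bases before the RefSeq start used for Dkk2 and 54 bases before that for Dkk1. For Dkk2 the start used lies inside the gene span given above, which begins at 132085266. The windows are chr3:132085042-132085291 (plus strand) for Dkk2 and chr19:30549497-30549746 (minus strand) for Dkk1, and capitals mark TATAAA.
Dkk2: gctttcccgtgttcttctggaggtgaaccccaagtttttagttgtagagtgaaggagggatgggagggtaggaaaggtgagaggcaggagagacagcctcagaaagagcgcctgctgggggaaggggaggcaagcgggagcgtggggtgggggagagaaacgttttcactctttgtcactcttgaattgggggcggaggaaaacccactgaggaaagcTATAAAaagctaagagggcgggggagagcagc
Dkk1: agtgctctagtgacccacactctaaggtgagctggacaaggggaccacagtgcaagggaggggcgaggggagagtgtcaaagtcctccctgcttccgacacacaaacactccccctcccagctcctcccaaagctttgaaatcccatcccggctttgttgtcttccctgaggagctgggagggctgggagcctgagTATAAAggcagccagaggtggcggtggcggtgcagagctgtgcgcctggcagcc
Searched over the full 300 bases on both strands, TATAAA occurred in 12.4% of all 20438 protein-coding windows, and among members also in Fzd1 and Wnt11. The TCF and LEF motif CTTTGAT occurred in 3.24% of all windows and in windows of Wnt11 and Wnt5b among members. The NF-κB κB consensus occurred in 4.85% of all windows and in those of Rspo1 and Wnt10b among members. A match is a string of letters and not a bound site.

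Between the 3 libraries, the detected members had a median coefficient of variation of 7.69%, against 8.56% over all detected genes and 8.92% over those within the members' range of mean CPM. Their index of dispersion, the chi-square of the counts over its degrees of freedom, which grows with the count, had a median of 2.13, against 3.79 over the 11224 detected genes and 3.49 over the 9245 of these within the members' range of mean CPM. Counting error alone would give a median of 0.693. Without replicate 1 the medians were 0.573 for members and 1.86 for all detected genes, where counting error would give 0.455. The index was highest for Dkk2 (28.0), Wnt5a (12.2), Dkk3 (8.12), Wnt10a (6.86), Fzd3 (6.72) and Lrp5 (5.18). Of these, Dkk2, Wnt5a, Fzd3 and Lrp5 were highest in replicate 1, and Dkk3 and Wnt10a in replicate 3. Fzd1, Fzd4, Fzd5, Fzd7 and Rspo1 had an index below 1, so no clear spread beyond counting error was seen for them. With 3 libraries and counts of this size, a modest extra spread could be missed. Replicate 1 held the highest value of 6 of the 15 detected members (40.0%), against 45.7% of all detected genes.

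**Figure D4:**
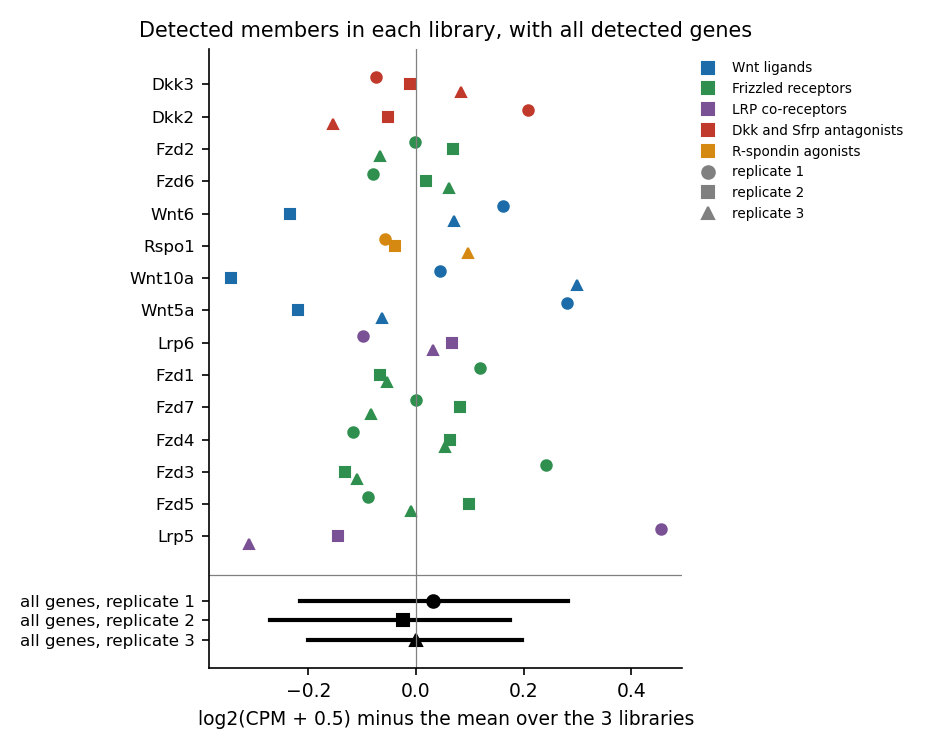
Deviation of log2(CPM + 0.5) from the mean over the 3 IL-1 libraries for each detected member, by library (marker shape) and class (colour), with the median and the 5th to 95th percentile of all detected genes below. Lrp5, Wnt5a, Fzd3 and Dkk2 lie furthest to the right in replicate 1, where Wnt6 and Fzd1 also lie to the right. Wnt10a, Wnt6 and Wnt5a lie furthest to the left in replicate 2, where Lrp5 and Fzd3 also lie to the left.

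Other pathway genes were detected in a larger share than the members, but the shares differed widely between lists. Of 95 such genes on 9 lists, 63 were detected (66.3%), against the 51.1% of protein-coding genes given above. Of these 63, 22 were on the cytoplasmic list of 23 genes. The lists named receptor regulators (44.4%), feedback targets (38.9%) and other secreted inhibitors (10.0%) lay below 51.1%. All 5 genes of WNT release and processing were detected. Wls, which carries WNTs to the cell surface, was at 43.1 ± 2.34 CPM per kb, the cargo receptors Tmed2 and Tmed5 at 25.0 ± 2.31 and 21.7 ± 0.859, and Porcn, the enzyme that attaches the lipid, at 2.91 ± 0.856. Porcn was lowest in replicate 1, with 101, 174 and 200 counts. Wls was thus 4.67 ± 1.01-fold above the summed Wnt ligands per kb.

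Of 5 alternative WNT receptors, 3 were detected. Ryk was at 17.1 ± 0.804 CPM per kb and the polarity receptor Ptk7 at 7.49 ± 0.475, so Ryk lay above every Frizzled in these libraries. Ror2, a WNT5A receptor, was at 1.96 ± 0.252 CPM per kb, while Ror1 had 20, 3 and 5 counts. Among 9 regulators of the receptors, 4 were detected: Tspan12, a partner of FZD4, at 3.81 ± 0.213 CPM per kb, the R-spondin receptor Lgr4 at 2.32 ± 0.300, the ubiquitin ligase Znrf3 at 2.28 ± 0.0432 and the DKK receptor Kremen1 at 1.69 ± 0.020. Their relatives were near 0, with 1, 0 and 0 counts of Lgr5, 11, 10 and 4 of Lgr6, 0, 1 and 6 of Rnf43 and 2, 2 and 1 of Kremen2.

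The list named other secreted inhibitors holds 10 genes, and not all of them encode secreted proteins or plain inhibitors. Of these 10, 1 was detected, the insulin-like growth factor binding protein Igfbp4 at 217 ± 19.5 CPM per kb. Cthrc1, a WNT and Frizzled binding matrix protein, was next at 0.737 ± 0.181, and its 26, 18 and 19 counts put it just under 1 CPM in replicate 2. Trabd2b had 2, 21 and 5 counts and Apcdd1 14, 7 and 9. Frzb, a relative of the Sfrp genes, and Sost and Sostdc1, which bind LRP5 and LRP6, had no count. Heparan sulfate proteoglycans, which hold WNTs at the cell surface, were detected for 7 of 10 genes, led by the syndecans Sdc4 at 366 ± 45.9, Sdc2 at 124 ± 3.10 and Sdc1 at 27.8 ± 1.39 CPM per kb and by the glypican Gpc1 at 22.7 ± 1.75.

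In the cytoplasm 22 of 23 genes were detected. Ctnnb1, which encodes β-catenin, was highest at 61.4 ± 1.35 CPM per kb, followed by the kinase gene Csnk1a1 at 50.5 ± 2.26, the ubiquitin ligase adaptor Fbxw11 at 31.5 ± 4.16 and Csnk1d at 19.9 ± 1.36. The exception was Axin2, a scaffold of the destruction complex and itself a target of β-catenin, with 1, 1 and 0 counts, while its paralog Axin1 had 605, 594 and 602. Of 13 nuclear genes, 11 were detected, with Pygo2 at 13.2 ± 0.416, Tcf7l2 at 3.62 ± 0.238, Tcf7l1 at 1.49 ± 0.293 and the corepressor Tle3 at 1.31 ± 0.222 CPM per kb. Of 11 planar polarity genes, 6 were, with Vangl1 at 8.24 ± 0.417, Scrib at 3.41 ± 0.456, Daam1 at 2.47 ± 0.137 and Ankrd6 at 1.08 ± 0.232.

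Of 18 genes listed as feedback targets of β-catenin, 7 were detected (38.9%), against 51.1% of protein-coding genes; with so few genes on the list, nothing was read from this difference. Myc at 202 ± 14.3, Ccnd1 at 104 ± 2.32 and Lbh at 63.5 ± 5.24 CPM per kb were highest; they are also controlled by other pathways, and Znrf3 followed at 2.28. Notum, a secreted enzyme that removes the lipid from WNTs, was detected with 62, 77 and 74 counts, and Lef1 with 167, 156 and 159. Of the 11 genes of this list that were not detected, Axin2 was given above, and others had 0, 1 and 0 counts of Nkd1, 0, 2 and 0 of Nkd2, 15, 14 and 10 of Tcf7, and none of Sp5, Dkk1 and Cdx2. Several genes stand on this list and another, so the lists are not independent.

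**Figure D5:**
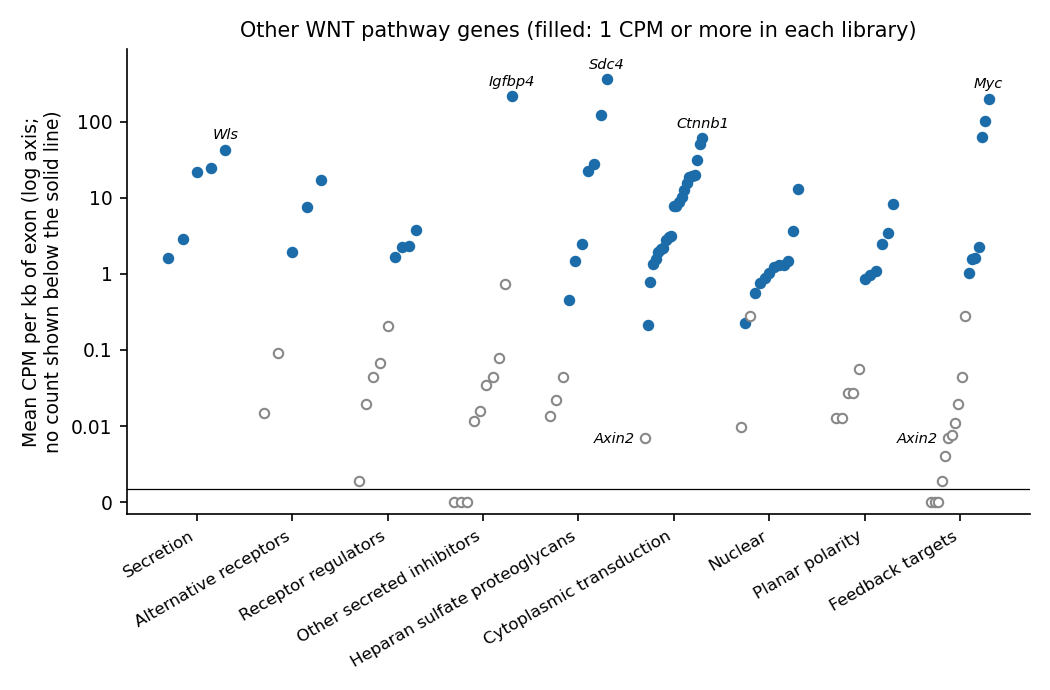
Mean CPM per kb of exon (log axis, n = 3 libraries) of each gene on the 9 lists of other WNT pathway genes, filled where it reached 1 CPM in each library; genes without a count lie below the solid line. Cytoplasmic genes other than Axin2 are all filled. Open are the genes on the list named other secreted inhibitors except Igfbp4, and 11 of the 18 feedback targets.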

How the data were processed

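RNA from NIH3T3 cells was measured in 3 distinct IL-1 libraries. The deposited values are raw counts, 1 row per Entrez gene ID. The tools named in the submitters' processing notes are CASAVA, STAR and featureCounts, on genome build mm10. Their versions, the annotation, and the strand and multi-mapping settings are not given in the sources. Per the labels' protocols, cDNA came from cell lysate without RNA extraction, with pre-amplification and tagmentation and no mention of molecular identifiers, so counts are reads and limits cover counting error only. The 9 tables identical to IL-1 replicate 3 were left out.

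Symbols and positions came from RefSeq GRCm38.p6 by Entrez ID (25275 of 27179 matched), and exon lengths from GENCODE M21 (known for all 43 members and 98.8% of protein-coding genes). CPM used the total count of each library. TMM and RLE factors (edgeR 4.0.16, R 4.3.3) served as alternatives. The index of dispersion was tested on simulated data. Other steps used pandas 2.3.3 and numpy 2.4.6 in Python 3.11.15. All members are named; of each pathway list the 4 genes with the highest mean CPM per kb, Ctnnb1, Axin2, Wls, Porcn and genes with no count. Other genes, promoters and sequences were chosen after their values were seen, and the members and lists with earlier results of these data known.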

Additional observations from a re-analysis of the deposited data

How the results depend on the processing

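No paired analysis was possible because the other 3 groups repeat 1 IL-1 table. The 15 detected members stayed the same genes with TMM or RLE factors, without any 1 library and with a mean of at least 1 CPM in place of 1 CPM in each library. A minimum of 0.5 CPM added Wnt11 (16 members), and 2 CPM removed Lrp5 (14 members, 1 LRP co-receptor). Of the pathway lists, the other secreted inhibitors rose from 1 to 2 detected genes with TMM factors, RLE factors, a minimum of 0.5 CPM, a mean of at least 1 CPM, or without replicate 2 (1 to 2 over the libraries left out); the 2 CPM minimum kept 1. Class sums depend on length: with the longest transcript, the Frizzleds came to 23.6 and the LRP co-receptors to 3.85 CPM per kb; with no division by length the ligands summed to 36.7, the Frizzleds to 109, the co-receptors to 36.0, the antagonists to 235 and the R-spondins to 5.78 CPM. The median index of dispersion ranged from 0.573 to 2.43 for members and from 1.86 to 3.53 for all detected genes with 1 library left out, lowest without replicate 1; fewer libraries also lower it by construction. Depth limits the values of members below 1 CPM.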
